A study of Mus musculus with 2 samples.

Results

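The spatial layout of gene expression was examined inside the heart section of a single TOP2B transgenic mouse. The section was taken from a series with 1 heart section of a transgenic α-MHC-MerCreMer+/− hTOP2B LSL/− mouse and 1 of a control α-MHC-MerCreMer+/− mouse. Both mice received intraperitoneal tamoxifen at 80 mg/kg, as a single dose, and the methods give an age of 6 weeks for this model. Both carried MerCreMer, a Cre recombinase that tamoxifen activates and that the α-MHC promoter drives in cardiomyocytes. The transgenic mouse alone carried human TOP2B cDNA at the Rosa26 locus behind a CAG promoter and a LoxP-flanked STOP cassette, which Cre removes. The time between the injection and the collection of these hearts is not given in the sources used here.

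The assay was Visium CytAssist on formalin-fixed, paraffin-embedded tissue cut at 5 μm, which reads genes with probe pairs. The probes are caught on a grid of spots, each with a barcode of its own, and counted by unique molecular identifiers (UMIs). One spot covers a patch of tissue in which cells of several types, or parts of them, may lie. All spots over tissue with at least 1000 UMIs were taken, which gave 921 of the 924 spots of the transgenic section, out of 2180 over both sections. The 3 spots left out held 0, 1 and 758 UMIs. The 921 spots held 12952630 UMIs in all and between 1619 and 28695 UMIs each, with a median of 14547. Since there was 1 section, no difference here has a replicate check, no p-value was computed, and the patterns describe this section alone.

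Moran's I measures how alike neighbouring spots are in a gene's level, and lies near 0 for a gene scattered at random and near 1 for a gene laid out in broad regions. The 7590 genes with at least 200 UMIs were ranked by the Moran's I that the authors deposited, and the 50 highest are described. The ranking used the same counts as the levels given here, so the layout of these genes is a description of what the ranking picked.

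A ventricular wall holds cardiomyocytes, which contract with sarcomeres, are paced by calcium cycling through the sarcoplasmic reticulum, and make most of their ATP by oxidizing fatty acids in densely packed mitochondria. Between them lie fibroblasts, which lay down collagen and other matrix proteins, and vessels. Under load, adult cardiomyocytes can express genes of the fetal heart again, such as Nppa, which encodes atrial natriuretic peptide, and Myh7, which encodes the slow β-myosin heavy chain beside the adult α-chain of Myh6. A wall is also known to differ from its outer, epicardial side to its inner, endocardial side.

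The 50 genes had a deposited I from 0.706 for Gpx3 down to 0.619 for Ndufv1. The next 5 in rank, just outside, were Ndufb10, Hspb7, Tpm1, Col3a1 and Cox8b, from 0.616 to 0.615, so the limit at rank 50 separates neighbours that hardly differ. Across all 7590 genes the median I was 0.0354, and 142 genes (1.87%) had an I of at least 0.5. All 50 genes lay in the most abundant 10% of the ranked genes, with 3422 to 262295 UMIs each against a median of 599.5 over all, and together they held 18.8% of the section's UMIs. Across genes the deposited I was higher with more UMIs on the log2 scale (r = 0.816 over 7590 genes, which share the spots and their depth and are not independent), so genes of few UMIs could hardly reach this rank.

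Within the list, 2 groups of genes and a pair varied together from spot to spot. The largest held 37 genes of cardiomyocyte energy supply and contraction, led by Ckmt2, the mitochondrial creatine kinase. The second held 11 genes of secreted and matrix proteins, led by Gpx3, the extracellular glutathione peroxidase, and included Nppa. The pair was Hba-a2 and Hbb-bs, the α and β chains of hemoglobin. They are called the Ckmt2 group, the Gpx3 group and the hemoglobin pair below. The Ckmt2 group was highest on the left of the section, the Gpx3 group on the right, and the hemoglobin pair in a patch of spots at the central gap.

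**Figure D1:**
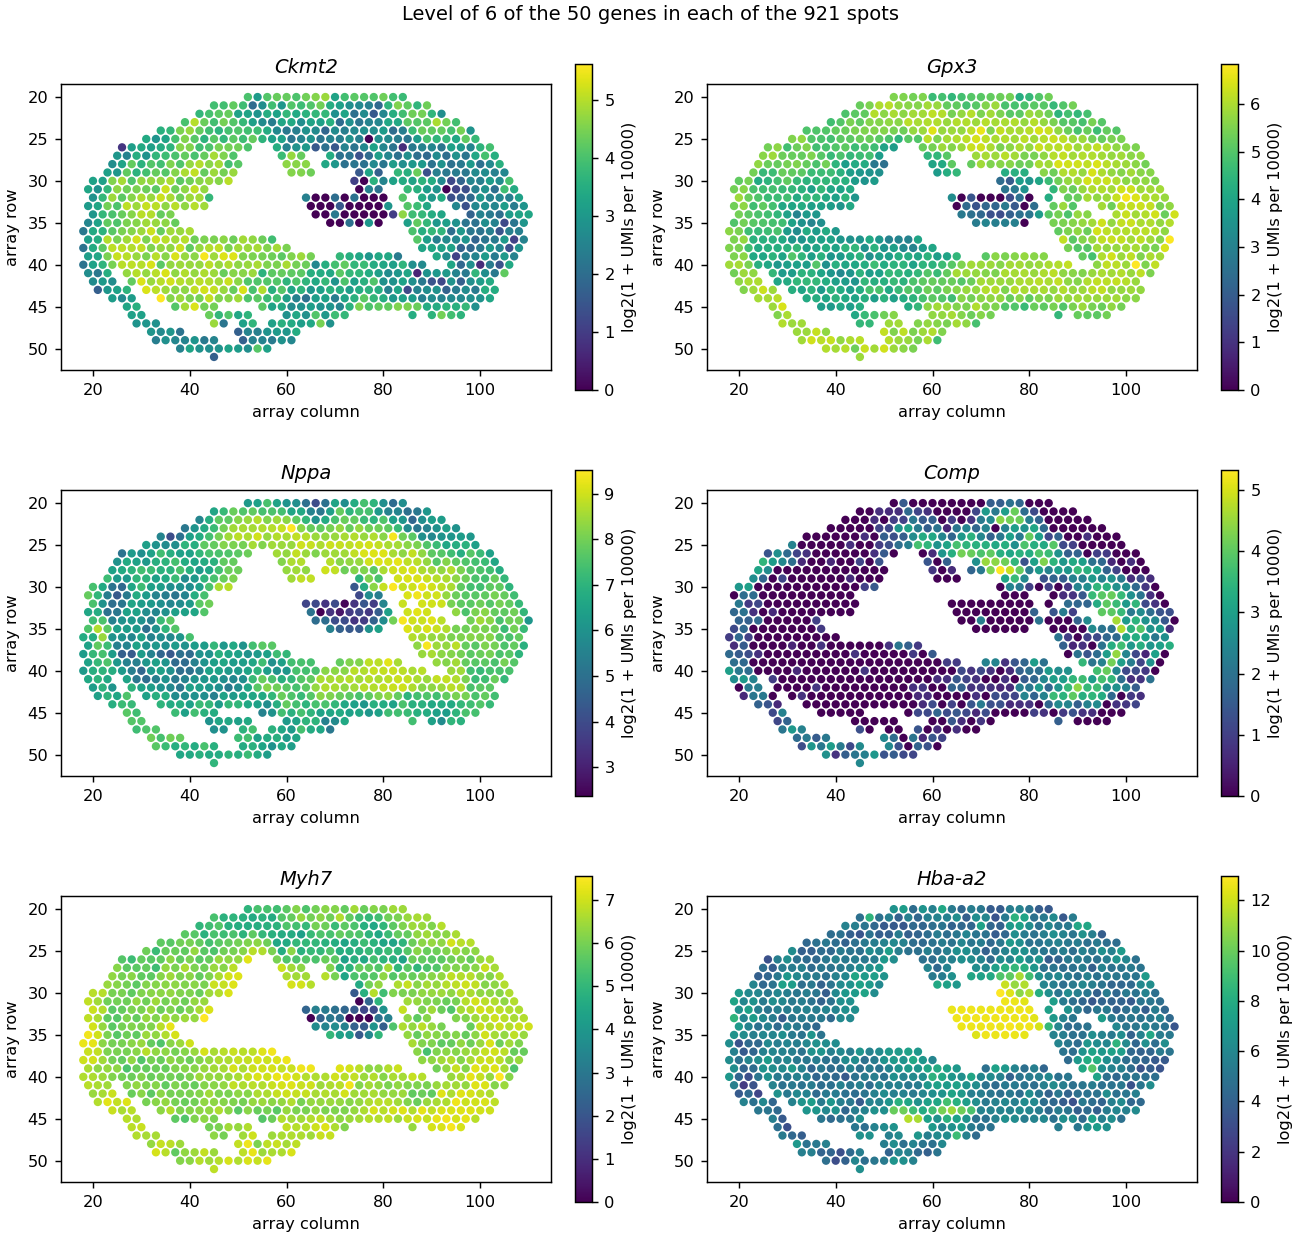
Level of Ckmt2, Gpx3, Nppa, Comp, Myh7 and Hba-a2 in each of the 921 spots, drawn at its array row and column, with color for log2(1 + UMIs per 10000) on a scale of its own in each panel. Ckmt2 was highest on the left and Gpx3, Nppa and Comp on the right, Myh7 was lowest at the top, and Hba-a2 filled a patch of spots between rows 27 and 35 and columns 64 and 82.

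The 250 bases before the annotated start are printed for the highest-ranked gene of each group, for Nppa, and for Myh6 and Myh7. The last 2 are the paired myosin heavy chain genes, and Myh6 gives the Cre transgene its promoter type. A link between sequence and layout was not tested. The sequences come from RefSeq on GRCm38.p6, while the submitters' processing notes name GRCm39. They are written 5′ to 3′ in lower case, with any match to a searched motif in capitals. For Myh7 the first of its 2 annotated starts is shown, and the window of the other held no searched motif.
Gpx3 (chr11:54902604-54902853, plus strand): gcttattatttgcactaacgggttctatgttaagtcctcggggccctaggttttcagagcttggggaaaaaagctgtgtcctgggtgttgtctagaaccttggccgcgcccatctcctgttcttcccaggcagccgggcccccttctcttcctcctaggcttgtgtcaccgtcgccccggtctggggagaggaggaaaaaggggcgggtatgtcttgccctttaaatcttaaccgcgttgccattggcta
Nppa (chr4:148000472-148000721, plus strand): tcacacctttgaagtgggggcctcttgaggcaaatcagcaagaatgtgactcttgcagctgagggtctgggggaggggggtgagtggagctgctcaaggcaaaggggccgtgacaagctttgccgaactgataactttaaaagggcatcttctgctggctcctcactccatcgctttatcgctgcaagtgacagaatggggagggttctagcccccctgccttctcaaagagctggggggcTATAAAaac
Ckmt2 (chr13:91876886-91877135, minus strand): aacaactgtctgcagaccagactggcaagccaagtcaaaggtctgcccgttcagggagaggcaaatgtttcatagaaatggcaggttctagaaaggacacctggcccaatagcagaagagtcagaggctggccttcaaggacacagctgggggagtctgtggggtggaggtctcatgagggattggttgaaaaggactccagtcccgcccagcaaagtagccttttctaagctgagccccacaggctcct
Myh6 (chr14:54966608-54966857, minus strand): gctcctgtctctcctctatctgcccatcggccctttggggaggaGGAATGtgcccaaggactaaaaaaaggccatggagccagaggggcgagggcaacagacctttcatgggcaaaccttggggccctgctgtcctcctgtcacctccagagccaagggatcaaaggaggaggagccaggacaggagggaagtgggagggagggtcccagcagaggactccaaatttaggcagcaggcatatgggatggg
Myh7 (chr14:54994627-54994876, minus strand): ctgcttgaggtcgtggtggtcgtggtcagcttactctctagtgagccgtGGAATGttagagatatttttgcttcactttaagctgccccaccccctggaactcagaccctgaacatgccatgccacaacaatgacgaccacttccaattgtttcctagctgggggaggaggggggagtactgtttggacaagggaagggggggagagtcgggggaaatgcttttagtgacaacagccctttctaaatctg
In these sequences the TATA box letters TATAAA stood 9 bases before the start of Nppa, and CATTCC, the core of the M-CAT element known from muscle genes, stood on the other strand from 206 bases before the start of Myh6 and 201 bases before that of Myh7. None of the searched letters was found in the windows of Gpx3 and Ckmt2. Windows were listed for 39 of the 50 genes, 46 windows in all, and 4 motifs were searched on both strands, with no overlap between matches on the printed windows. CATTCC was in 9 of 38 windows of the Ckmt2 group (23.7%), in 0 of 6 windows of the Gpx3 group, and in 12.6% of 32851 windows of all genes. TATAAA was in 7.89% of the windows of the Ckmt2 group and 12.4% of all, AAGGTCA, the letters that estrogen-related receptors are known to bind, in 5.26% and 4.08% respectively, and TGANTCA, the AP-1 site with any base in the middle, in 2.63% and 6.75%. A match is a string of letters in a window and was not tested as a binding site.

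The spots formed a closed ring between array rows 20 and 51 and columns 18 and 110. The ring lay around a central gap of 154 empty positions, and 2 smaller gaps of 25 and 8 positions lay toward the lower left. Of the 921 spots, 308 touched a position without tissue and 613 did not. Of the marker lists, 10 of 11 cardiomyocyte genes were measured, with 648458 UMIs, 7 of them among the 50 highest. The atrial list held 1928 UMIs over its 4 measured genes. Its members Sln and Bmp10, at 10 and 9 UMIs, were too low to be counted as measured, and the 6 adipocyte genes were below 20 UMIs each. Markers of cardiomyocytes, among them the ventricular light chains Myl2 and Myl3, were thus abundant and those of the atria low.

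The hemoglobin genes are described before the rest, because a few spots rich in them changed how the other genes ranked and varied together. UMIs of the 3 measured hemoglobin genes, Hba-a2, Hbb-bs and Hbb-bt, made up 0.0561% to 88.1% of a spot's UMIs. In 63 spots (6.84%) they made up at least 5%, a limit chosen after these values were seen, with a median of 73.1% against 0.558% in the other 858 spots. These hemoglobin-rich spots were also shallow, with a median of 5461 UMIs against 14769. A connected patch of 48 of them, 21 of which touched the central gap, held 56.6% of all hemoglobin UMIs, and hemoglobin made up 55.7% of its UMIs (147572 of 264955, 95% exact binomial interval 55.5% to 55.9%, for counting error only).

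In the patch, Hba-a2 stood at 4372 UMIs per 10000 against 56.1 in the hemoglobin-poor spots, and Hbb-bs at 819 against 12.9. Other genes of red blood cell precursors stood as far above, among them Alas2, the erythroid enzyme of heme synthesis, at 61.1 against 0.992 (61.6-fold), and Slc4a1, the anion exchanger of the red cell membrane, at 7.51 against 0.135 (55.7-fold). Bpgm, the red cell enzyme that makes 2,3-bisphosphoglycerate, was 45.6-fold higher. Platelet genes were also higher there, with 4 genes at 3.62 against 0.769 UMIs per 10000 in sum. The part of the lower depth in these values was not tested.

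Every gene of the other groups except Comp had a lower share of the UMIs in the patch than in the hemoglobin-poor spots. Hemoglobin made up 55.7% of the patch's UMIs, which lowers the share of all other genes there. The share of all 7590 genes lower in the patch was not counted, with or without hemoglobin in the totals. Endothelial genes in sum stood at 3.55 UMIs per 10000 in the patch against 18.6. Smooth muscle and pericyte genes stood at 3.32 against 13.1. Lymphocyte, neutrophil, platelet and erythroid genes in sum were higher there. The interferon sum was higher too, at 6.19 against 3.85, but a single gene, Rsad2, made up most of the 6.19. The Ckmt2 group was lower by a median of 3.81-fold, from 2.70-fold for Myl1 to 5.93-fold for Acaa2, and the Gpx3 group by a median of 1.63-fold. When hemoglobin UMIs were left out of the totals, all 37 genes of the Ckmt2 group were still lower in the patch, by a median of 1.70-fold, from 1.21-fold for Myl1 to 2.65-fold for Acaa2. On that scale the Gpx3 group parted from them, with a median ratio of hemoglobin-poor spots over patch of 0.726 and values from 0.231 for Comp to 1.27 for Gpx3. Comp stood at 5.06 UMIs per 10000 in the patch against 2.61 elsewhere, even with hemoglobin in the totals. The patch lay on the right side, where the Gpx3 group was higher and the Ckmt2 group lower in the hemoglobin-poor spots too. These ratios were taken against hemoglobin-poor spots of the whole section, so patch and side cannot be told apart in them.

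Leaving out the 63 hemoglobin-rich spots changed the ranking. Moran's I was recomputed on log2(1 + UMIs per 10000) with the 6 adjoining positions as neighbours, which tracked the deposited values closely (r = 0.995 across 7590 genes, although among the 50 it differed by up to 0.173, in Nppa). The median of this recomputed I over the 50 genes was 0.772 in all spots and 0.668 in the 858 hemoglobin-poor spots, and it was lower in 42 of the 50 genes. Over all 7590 genes the median also fell, from 0.0411 to 0.0160, and the share of them with a lower value was not counted. S100a1, a calcium-binding protein of the sarcoplasmic reticulum, went from 0.719 to 0.186, Aldoa, the muscle aldolase of glycolysis, from 0.797 to 0.268, and Hba-a2 from 0.771 to 0.456. Of the 50 genes, 36 remained among the 50 highest.

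The genes of the Gpx3 group held their place. Clu went from 0.839 to 0.875, Gpx3 from 0.834 to 0.865 and Igfbp7 from 0.823 to 0.856, and with Nppa, which held at 0.860 from 0.859, and Mgp they filled the highest 5 ranks without the hemoglobin-rich spots. Among the 14 genes that came in were Col3a1, Postn, Col1a1, Ccn5, Apoe, Sprr1a, Acta1, Cox8b, Thbs4, Prelp, Atp5b, Cd74 and Serpina3n. Of these, Cox8b and Atp5b encode parts of the respiratory chain and the ATP synthase, and Acta1 is skeletal α-actin, expressed in the fetal heart. Most of the others encode matrix or secreted proteins.

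**Figure D2:**
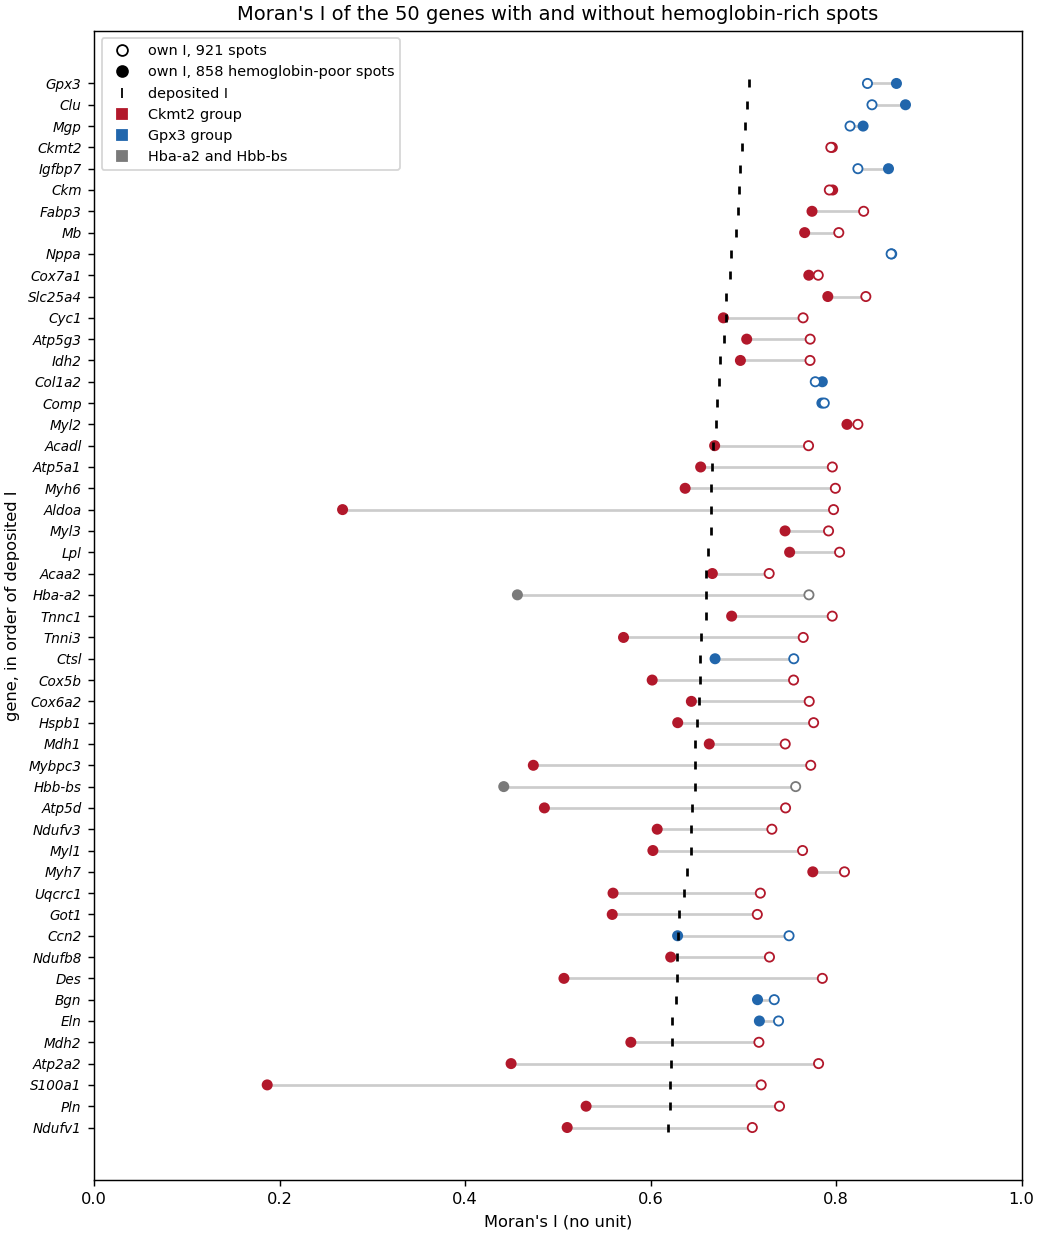
Moran's I of the 50 genes in order of the deposited I, shown as the deposited value (black tick), as recomputed over all 921 spots (open circle) and as recomputed over the 858 hemoglobin-poor spots (filled circle), with color for the group. The value over hemoglobin-poor spots was lower in 42 genes, most so in S100a1 and Aldoa, and higher in Clu, Gpx3 and Igfbp7 of the Gpx3 group.

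The groups themselves came from correlations across spots of log2(1 + UMIs per 10000), joined by average linkage and parted at r = 0.3. Over all 921 spots the median r was 0.778 within the Ckmt2 group (666 pairs) and 0.722 within the Gpx3 group (55 pairs), and it was 0.955 for the hemoglobin pair. Between the Ckmt2 and the Gpx3 group it was 0.132 over 407 pairs. All such r share the spots, their depth and their totals and are descriptions.

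Without the hemoglobin-rich spots the median r between the Ckmt2 and Gpx3 groups was -0.607, and within them it was 0.578 and 0.663. Of the 1225 pairs among the 50 genes, 201 had an r below 0 over all spots and 479 did so in the hemoglobin-poor spots. The means of the groups, each gene scaled to its own SD, had an r of 0.191 over all spots and of -0.937 over the 858 hemoglobin-poor spots. In the 4 quadrants of the section taken alone this r lay between -0.854 and -0.942. Levels are shares of a spot's UMIs, so a group that takes a larger share leaves less for others. In the same 858 spots with the 50 genes and hemoglobin left out of the totals, r was -0.919, and over all spots with hemoglobin left out of the totals it was -0.0819. In the hemoglobin-poor spots depth moved with neither mean, with r to log2 UMIs of -0.0899 for the Ckmt2 group and 0.109 for the Gpx3 group, against 0.540 and 0.461 over all spots.

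**Figure D3:**
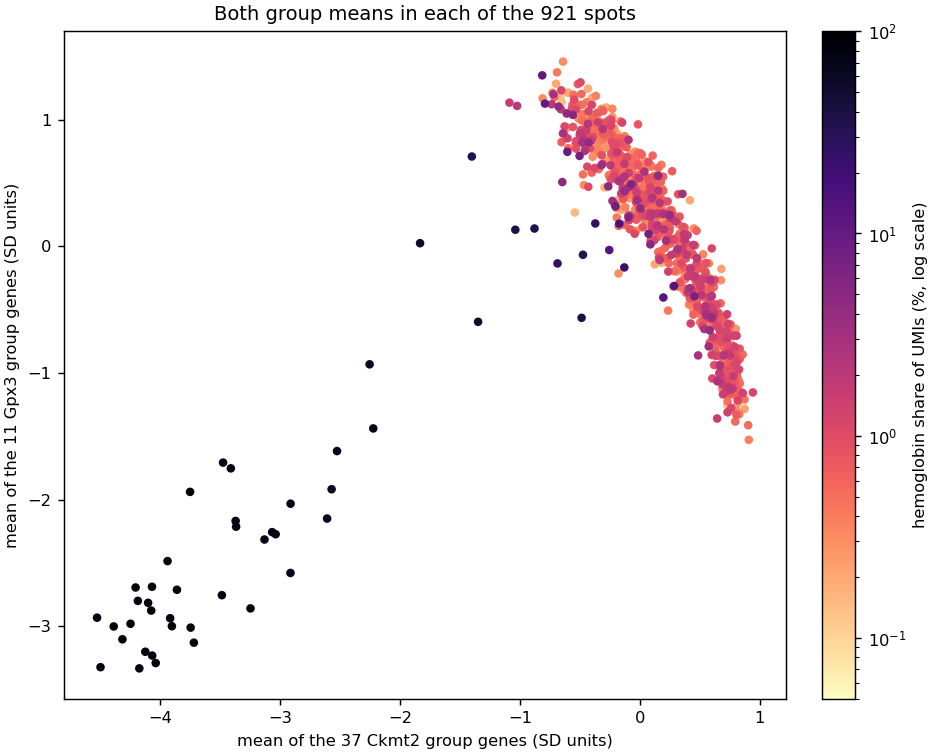
Mean scaled level of the 11 Gpx3 group genes (vertical axis, SD units) against that of the 37 Ckmt2 group genes (horizontal axis, SD units) in each of the 921 spots, with color for the share of hemoglobin UMIs on a log scale. Most spots lay on a falling band, and the spots richest in hemoglobin lay low on both axes.

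When the tree was built on the hemoglobin-poor spots, 43 of the 48 genes kept their group. Hspb1, a small heat shock protein, and Des, the intermediate filament desmin, moved from the Ckmt2 group to the Gpx3 group, which then held 13 genes. Myl1, Myh7 and S100a1 joined no other gene. Hspb1 had a mean r of 0.449 to the rest of the Ckmt2 group over all spots and of -0.354 in the hemoglobin-poor spots, and Des of 0.608 and -0.177. Their r to each other was 0.809 and 0.531.

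**Figure D4:**
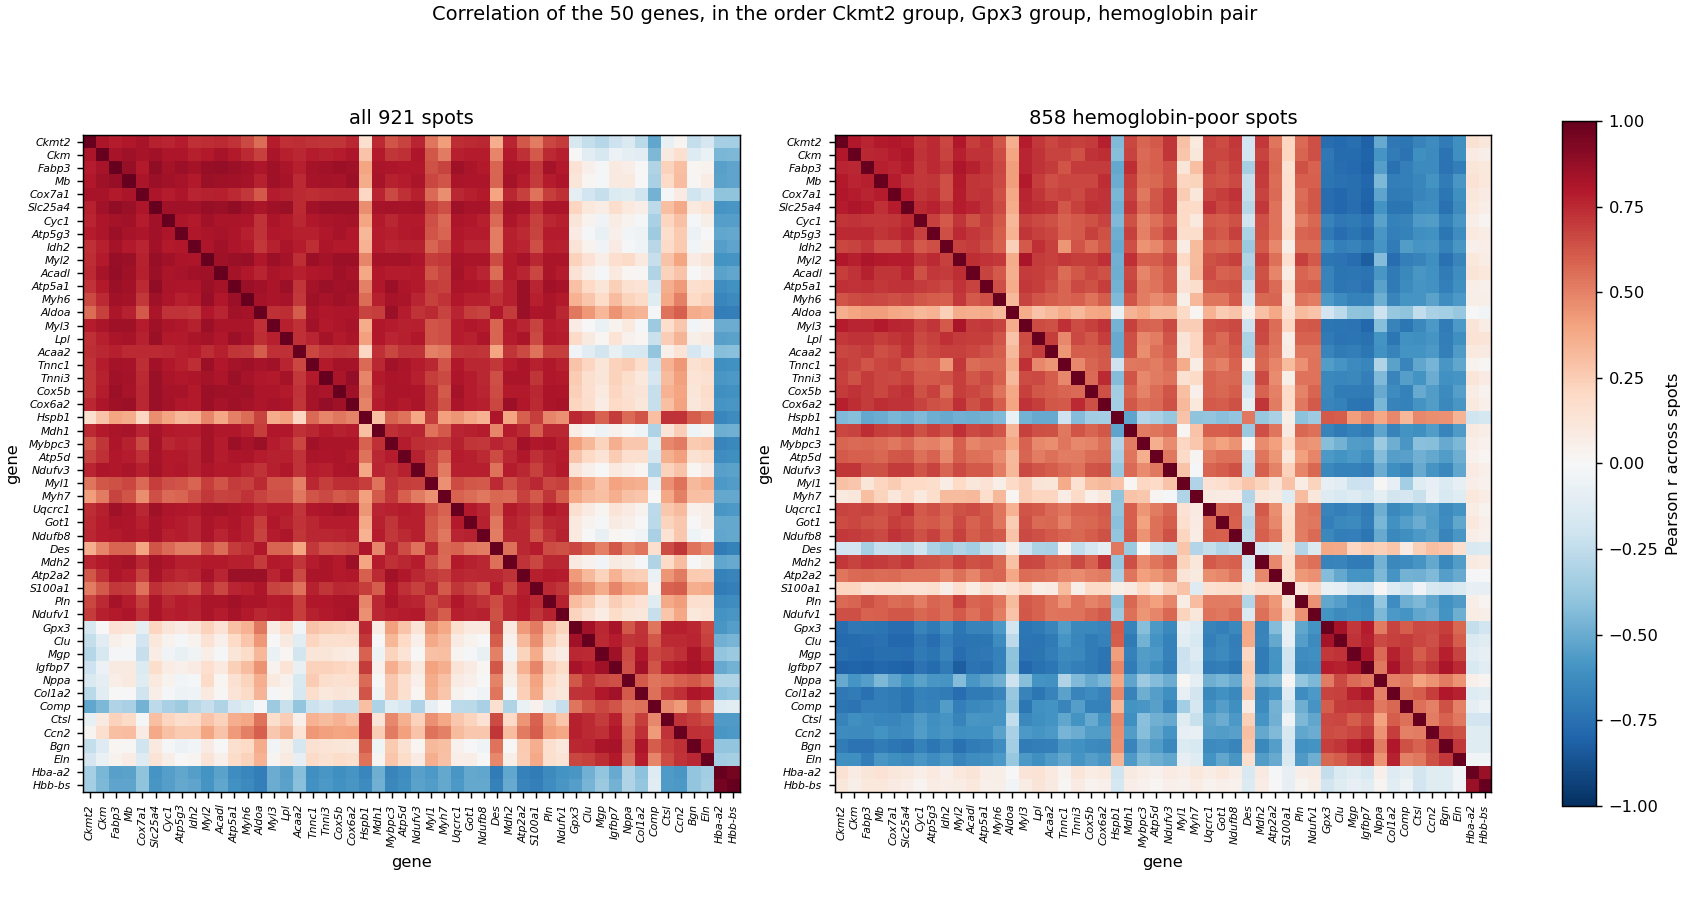
Pearson r across spots between each pair of the 50 genes, over all 921 spots (left panel) and over the 858 hemoglobin-poor spots (right panel), with genes in the order Ckmt2 group, Gpx3 group and hemoglobin pair. The block between the first 2 groups had a median of 0.132 on the left and -0.607 on the right, and the rows of Hspb1 and Des changed sign.

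All positions below are given for the 858 hemoglobin-poor spots, as UMIs of the gene per 10000 UMIs of the spots summed. Left and right were parted at array column 64 and upper and lower at row 35. On the left, 34 of the 37 genes of the Ckmt2 group were higher than on the right, which held for 39.5% of all 7590 genes, with a median log2 ratio of left over right of 0.55. Of these, 15 were at least 1.5-fold higher on the left, which held for 1.78% of all 7590 genes. The 3 that were higher on the right were Hspb1, Des and Myh7. Between the upper and the lower side none of the 50 genes reached 1.5-fold, which 0.514% of all genes did toward the upper and 0.171% toward the lower side.

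Of the roles in the group, the 3 genes that move high-energy phosphate had the highest median log2 ratio of left over right, 0.96, although Slc25a4 lay below genes of other roles such as Cox7a1. Ckmt2 stood at 17.9 UMIs per 10000 on the left and 8.16 on the right, 2.19-fold (2.12 to 2.27, exact conditional interval for counting error only). Ckm, the cytosolic creatine kinase, stood at 23.7 and 12.1, or 1.95-fold. Slc25a4, the carrier that exchanges ADP and ATP across the inner mitochondrial membrane, stood at 116 and 74.7, or 1.55-fold, and had the highest mean r to its group of all 37 genes, 0.808 over all spots. By sector of the section, Ckmt2 ran from 6.58 at the right to 20.8 at the left (3.16-fold), the widest range of its group. In single spots its 5th, 50th and 95th percentiles were 2.93, 10.7 and 31.3.

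Genes of the respiratory chain and the ATP synthase were higher on the left in 11 of 11, with log2 ratios from 0.43 for Atp5a1 to 1.07 for Cox7a1. Cox7a1, the muscle form of a subunit of cytochrome oxidase, stood at 18.6 on the left and 8.84 on the right. Atp5g3, a subunit of the ring of the ATP synthase, stood at 22.9 and 13.3. Cyc1, the cytochrome c1 of complex III, stood at 17.9 and 11.3. Complex I was represented by Ndufv1, Ndufv3 and Ndufb8, of which Ndufv1 was 1.36-fold, Ndufv3 1.55-fold and Ndufb8 1.58-fold higher on the left.

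The 4 genes of fatty acid supply and oxidation were all higher on the left. Fabp3, the heart fatty acid binding protein, stood at 67.5 on the left and 43.2 on the right, and Lpl, which frees fatty acids from lipoproteins, at 46.2 and 31.5. Acadl and Acaa2, which carry out the opening and the last step of a round of β-oxidation, were 1.49-fold and 1.87-fold higher. The Krebs cycle and malate-aspartate shuttle genes Idh2, Mdh1, Mdh2 and Got1 had log2 ratios from 0.57 to 0.72. Mb, the oxygen-binding myoglobin, stood at 52.9 and 31.1 and its levels by sector ran from 26.6 at the upper right to 58.9 at the left. Aldoa, the only gene of glycolysis among the 50, differed little, with 51.1 and 45.5.

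Sarcomere genes followed with a smaller slope and did not move as a block. Myl3, the ventricular essential light chain, stood at 35.3 and 23.4, and Myl2, the ventricular regulatory light chain, at 104 and 71.2. Myl2 had the highest recomputed I of the Ckmt2 group in the hemoglobin-poor spots, 0.812. Myh6 stood at 65.3 and 50.8 (1.28-fold), and Tnnc1 and Tnni3, the calcium-binding and inhibitory subunits of troponin, were 1.28-fold and 1.37-fold higher on the left. Mybpc3, the myosin-binding protein of the thick filament, was 1.17-fold higher.

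Of the calcium genes, Atp2a2, the calcium pump of the sarcoplasmic reticulum, stood at 70.6 on the left and 55.7 on the right, and Pln, its inhibitor, at 32.7 and 26.3. Both kept a like slope, with log2 ratios of 0.34 and 0.31. S100a1, which enhances the pump, stood at 21.3 and 21.1, and its sectors ran only from 19.8 to 22.3. Its high deposited I of 0.621 stood beside a level of 6.38 in the hemoglobin patch, 3.32-fold below the hemoglobin-poor spots. With hemoglobin left out of the totals, S100a1 was 1.48-fold lower in the patch.

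Myh7 had a layout of its own. It stood at 77.6 on the left and 81.8 on the right but at 48.7 at the top and 106 at the bottom, with 101.5 at the lower right, 93.4 at the lower left and 91.6 at the right. Its lower side was 1.47-fold above its upper side, the largest such ratio of the 50 genes. In the hemoglobin-poor spots it had an r of 0.327 to Myh6 and of -0.0903 to Nppa. Its recomputed I of 0.775 ranked 12 among all genes in these spots. Thus Nppa and Myh7, both genes of the fetal program, had different maps. Myl1, a light chain of fast skeletal muscle, also kept apart, highest at the upper left (26.4) and at 16.3 at the right and at the lower left.

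All 11 genes of the Gpx3 group were higher on the right, which held for 60.5% of all genes, with a median log2 ratio of left over right of -0.80. Of these, 9 were at least 1.5-fold higher on the right, which held for 2.91% of all 7590 genes. Their highest sector was the right in 6 genes and the upper right in 5, and 8 were lowest at the left. The share of all ranked genes highest or lowest in each sector was not counted, so these sector counts have no background.

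Among the secreted proteins, Gpx3 stood at 32.7 on the left and 54.3 on the right, 1.66-fold (1.63 to 1.69), with 5th, 50th and 95th percentiles over spots of 12.3, 43.1 and 73.5. Clu, clusterin, a chaperone outside cells, stood at 41.5 and 75.3 (1.82-fold) and ran by sector from 30.3 at the left to 82.5 at the upper right. Igfbp7, which binds insulin-like growth factors, stood at 31.7 and 53.5 and had the highest mean r to its group, 0.777 over all spots. Nppa, with 262295 UMIs the most abundant of the 50 genes, stood at 138 and 275 (1.98-fold) and ran from 91.8 at the left to 299 at the right. In single spots the 5th, 50th and 95th percentiles of Nppa were 41.9, 159 and 487 UMIs per 10000.

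The matrix genes had the same sides. Mgp, matrix Gla protein, an inhibitor of calcification, stood at 12.7 and 25.4 (2.00-fold), Col1a2, a chain of type I collagen, at 12.8 and 22.8 (1.78-fold), and Bgn, the proteoglycan biglycan, at 9.86 and 17.1 (1.74-fold). Eln, the elastin of elastic fibers, was 1.49-fold and Ccn2, connective tissue growth factor, 1.39-fold higher on the right, and these were the 2 under 1.5-fold. Ctsl, the lysosomal protease cathepsin L, stood at 13.4 and 22.3.

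Comp, which binds collagen fibrils together, had the steepest slope of all 50 genes. It stood at 1.06 on the left and 4.27 on the right, 4.01-fold (3.69 to 4.37), and by sector from 0.618 at the upper left to 5.39 at the upper right, 8.71-fold. It was also the least abundant of the 50, with 3422 UMIs, and the median spot held 0.718 UMIs per 10000. Its mean r to the group was 0.553 over all spots, the lowest of the 11.

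**Figure D5:**
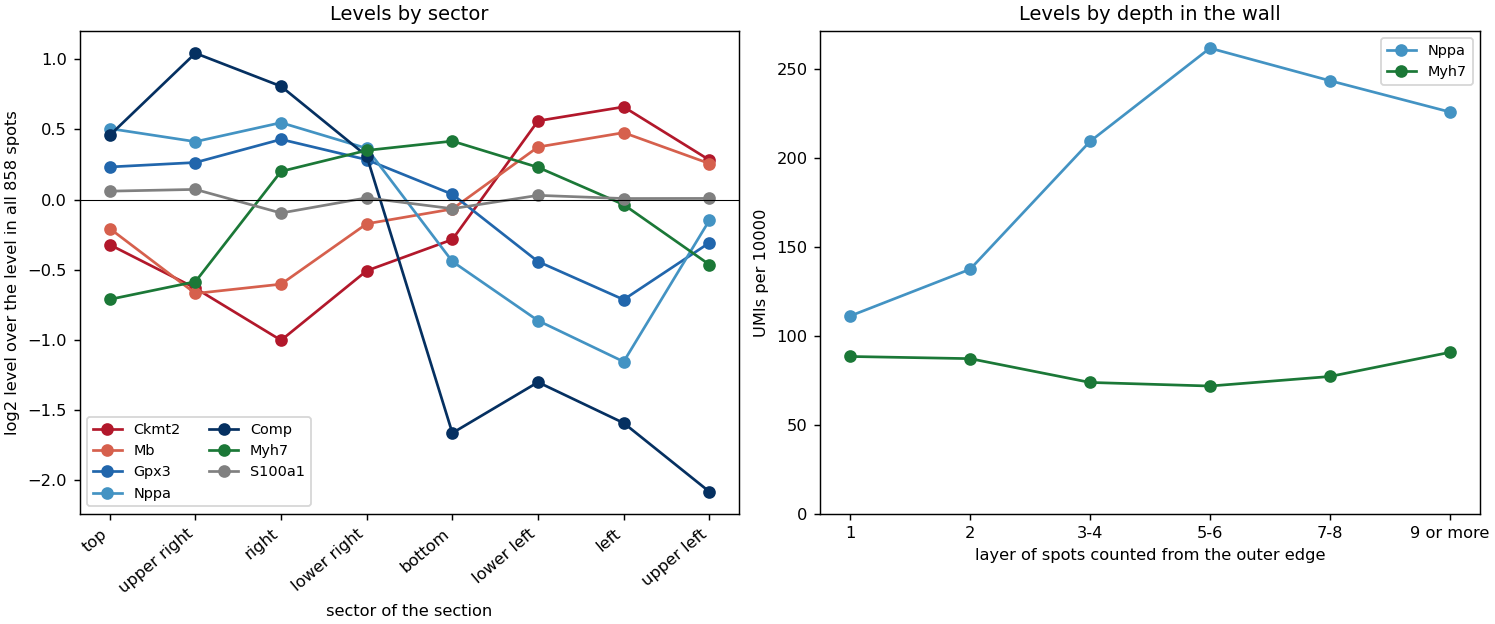
Left panel: log2 ratio of the level in each of 8 sectors over the level in all 858 hemoglobin-poor spots for Ckmt2, Mb, Gpx3, Nppa, Comp, Myh7 and S100a1. Right panel: UMIs per 10000 of Nppa and Myh7 by layer of spots counted from the outer edge. Ckmt2 and Mb peaked at the left, Gpx3, Nppa and Comp at the right side, and Myh7 at the bottom, while Nppa stood at 111 in the outermost layer and 262 in layers 5 to 6.

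Summed over genes, the Ckmt2 group took 15.2% of the UMIs at the left and 15.1% at the lower left, and 10.1% at the right. The Gpx3 group took 2.50% at the left and 6.40% at the right. Around the ring the order was gradual, with 13.7% and 3.74% at the upper left, 11.3% and 5.87% at the top, 11.9% and 5.49% at the lower right and 12.8% and 3.90% at the bottom. Median UMIs per spot in these 8 sectors lay between 13413 and 16526, and the hemoglobin share had its highest median, 1.23%, at the bottom.

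The spots of highest mean level lay together. Of the 86 spots that made up the highest 10% of the hemoglobin-poor spots for the Ckmt2 group, 55 formed a patch between rows 36 and 45 and columns 25 and 46, and 22 another between rows 30 and 35 and columns 29 and 42, both on the left of the ring. Those of the Gpx3 group fell into 15 patches, the largest of 23 spots between rows 21 and 28 and columns 74 and 91, in the upper right, followed by 14 spots between rows 24 and 28 and columns 66 and 76. Over all 921 spots, with 92 spots in the highest 10%, the largest patches held 80 and 42 spots.

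The depth of a spot in the wall was taken as its distance from the outer edge against its distance from the central gap, parted into 3 zones. The 2 smaller gaps were not used in this depth. Zones were taken over the whole ring, with left and right together, so side was not held fixed in these ratios. Of the Ckmt2 group, 32 of 37 genes were highest in the inner zone and 0 in the outer, with a median log2 ratio of inner over outer of 0.26, and Ckmt2 was the highest at 0.66 (10.5 in the outer and 16.6 in the inner zone). Most of the Gpx3 group ran the other way, with 8 of 11 genes highest in the outer zone and a median of -0.27, down to -0.51 for Col1a2. The share of all ranked genes highest in each zone was not counted. These counts therefore describe the groups without a background, and all genes were compared only at 1.5-fold, as given below.

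Nppa did not follow its group in this direction. It stood at 130 UMIs per 10000 in the outer zone, 232 in the middle and 267 in the inner zone, 2.04-fold from outer to inner. Counted in layers of spots from the outer edge, Nppa stood at 111 in the outermost layer, 138 in the next, 209 in layers 3 to 4 and 262 in layers 5 to 6. Counted from the central gap it stood at 295 in the adjoining layer and at 143 from layer 9 on. Comp was also lowest in the outer zone, at 1.82 against 3.22 in the middle zone. At least 1.5-fold higher in the inner than the outer zone were 6 of the 50 genes, among them Nppa, Comp and Ckmt2, and 0.856% of all genes. None of the 50 was so much higher in the outer zone, against 2.73% of all genes.

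Over the section as a whole, edges set the 50 genes apart little. The median log2 ratio of edge over interior spots was -0.04 for the Ckmt2 group and 0.04 for the Gpx3 group. No gene of the 50 reached 1.5-fold in either direction, which 0.487% of all genes did toward the edge and 0.395% toward the interior. The outer edge alone held less Nppa, with a log2 ratio over interior spots of -0.91. Inside the section the median ratio of edge over interior changed sign. By quadrant, with hemoglobin-rich spots included, it ran from -0.39 to 0.17 for the Ckmt2 group and from -0.29 to 0.80 for the Gpx3 group.

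At the lower left the section held a thin strip of spots between its second gap and the outer edge. It was compared with the wall across the gap, a choice made after the map was seen. The strip was taken as the 42 spots within 3 steps of that gap and of the outer edge, and the spots across as the other 45 within 3 steps of the gap. All 11 genes of the Gpx3 group were higher in the strip, by a median of 2.61-fold, and 34 of 37 genes of the Ckmt2 group were lower, by a median of 1.80-fold. Over 7588 genes, 4590 were higher in the strip and 2998 lower, and the median log2 ratio of strip over across was 0.14.

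Gpx3 stood at 61.4 UMIs per 10000 in the strip and 19.6 across the gap, and Clu at 80.8 and 24.9. Ckmt2 stood at 6.57 and 27.4, the latter above its level in any of the 8 sectors. Comp had 180 UMIs in the strip and 5 across. Nppa stood at 143 and 83.9, both below its level of 208 in the other spots, and Myh7 at 104 and 70.3. The strip and the spots across had median depths of 14955.5 and 12421 UMIs.

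Gene lists of cardiac processes and cell types were followed across the same spots, and their members are described by counts of either side at any fold, to be read against 39.5% of all genes higher on the left and 60.5% on the right. The oxidative phosphorylation list was higher on the left in 15 of 15 measured genes, and its sum had an r of 0.965 to the Ckmt2 group mean, but 5 of the 15 are members of that group. In the fatty acid oxidation list 16 of 16 genes, 3 of them among the 50, were higher on the left, with 180 UMIs per 10000 there and 118 on the right, from Fabp3 with the highest I to Hadh with the lowest (0.134). In the calcium cycling list 9 of 11 and in the adult contractile list 15 of 16 genes were higher on the left, with log2 ratios of the sums of 0.32 and 0.24, and 2 and 6 of these lists' genes are among the 50. Glycolysis and hypoxia genes were mixed, with 6 higher on the left and 7 on the right.

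Of 15 activated fibroblast matrix genes, 13 were higher on the right, at 59.9 UMIs per 10000 in sum against 36.4 on the left, and their sum had an r of 0.885 to the Gpx3 group mean. Comp is a member of both. Cthrc1, a secreted collagen-associated protein, stood at 0.597 and 0.263, Postn, periostin, at 6.10 and 4.30, and Fap had the lowest I of the list, 0.00945. Postn differed more between the upper and the lower side, at 7.11 and 3.31, and was highest at the top (13.1). Resting fibroblast genes differed less between right and left, with 7 of 9 higher on the right and sums of 21.4 and 18.5. Macrophage genes were higher on the right in 9 of 9, at 6.49 against 5.20, with C1qa the highest by I at 0.205. Fibroblasts and macrophages in greater number and more RNA per cell cannot be told apart in spots.

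Endothelial genes were spread more evenly, at 19.4 on the left and 17.7 on the right, with 7 of 9 higher on the left. Smooth muscle and pericyte genes were at 12.1 and 14.1 in sum, but their members went either way. The contractile genes Cnn1, Tagln, Myh11 and Acta2 had log2 ratios of left over right of -1.60, -1.11, -1.06 and -0.46, and the pericyte genes Rgs5, Abcc9 and Higd1b of 0.25, 0.34 and 0.27. On the whole list of 11 genes, 4 were higher on the left and 7 on the right. Of its other pericyte genes Kcnj8, Pdgfrb and Notch3, most were therefore higher on the right, so the pericyte genes had no common side. Epicardial genes were few, with 790 UMIs in all, and lay at the rim, with a log2 ratio of edge over interior of 1.39 and Msln, mesothelin, the highest by I at 0.0947. The atrial list was at 1.08 on the left and 1.95 on the right in sum. Of its 4 measured genes 3 were higher on the right, and Dkk3 was the highest by I at 0.277. In the fetal and stress list 10 of 12 measured genes were higher on the right, among them Cryab, Fhl1 and Myh7 with log2 ratios of only -0.01, -0.06 and -0.08. Of the 12, 4 are among the 50, and Nppa held 262295 of the list's 628307 UMIs. Sprr1a, a small proline-rich protein that rises in stressed cardiomyocytes, was at 0.648 on the left and 1.84 on the right. It was also higher on the upper than the lower side, at 1.76 against 0.704, and highest at the upper right (3.34). Acta1 was highest at the top and lowest at the bottom. Nppb, the other natriuretic peptide gene, had 13 UMIs in the section and was not followed.

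Lists of other stress programs differed in their sides. The log2 ratio of left over right was -0.04 for the p53 target list (Cdkn1a highest by I at 0.348), -0.01 for AP-1 and immediate early genes and 0.15 for the interferon list, where 8 of 9 genes were higher on the left, and their sums had r values to both group means between -0.042 and 0.054. The heat shock list had a log2 ratio of -0.07 and an r of 0.182 to the Gpx3 group mean, with 5 genes higher on each side. The integrated stress response list was at 2.57 and 3.33, with 9 of 12 genes higher on the right and an r of 0.326 to the Gpx3 group mean.

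Outside the 50 genes, those most like the Ckmt2 group mean in the hemoglobin-poor spots were Cox8b (r = 0.790), Atp5b (0.773) and Uqcrh (0.745), all of oxidative phosphorylation. Those most like the Gpx3 group mean were Ccn5, a matricellular protein (0.797), and the collagen genes Col1a1 (0.789) and Col3a1 (0.770). An r of at least 0.5 to the Ckmt2 group mean was found for 31 of the 50 genes and 1.41% of all 7590, and to the Gpx3 group mean for 12 and 0.922%. An r of -0.5 or below was found for 11 of the 50 and 0.909% of all toward the Ckmt2 mean, and for 31 and 1.4% toward the Gpx3 mean. The group means were made from these members, so the counts only describe them. With the hemoglobin-rich spots included, the 3 most like the Ckmt2 mean were Chchd10, Tnnt2 and Atp5b, and the 3 most like the Gpx3 mean were Sparc, Col3a1 and Col1a1.

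Top2b itself had little layout. It was counted at 1318 UMIs, or 1.02 per 10000, against 1.06 per 10000 in the control section, with a deposited I of 0.0515 and rank 2758. It stood at 1.04 on the left and 1.01 on the right. The transgene is a human cDNA, and whether the mouse probes read it is not given in the sources used here, so these counts do not check the label. Myh8, a perinatal myosin heavy chain, had 279 UMIs and an I of 0.0558, and Ucp3, a mitochondrial carrier, had 24 UMIs in the section.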

How the data were processed

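Reads were processed by the authors with Space Ranger 2.0.0, as the file header states, and the submitters' processing notes also name bcl2fastq, GRCm39 and mm39. The authors deposited UMI counts for 19465 genes in every spot, without normalization, and a score, Moran's I, for the genes of this section. The probe set version is not given in the sources used here. Deposited p-values and the control section's layout were not used.

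Spots with fewer than 1000 UMIs and genes with fewer than 200 were left out. Counts were divided by each spot's total, multiplied by 10000, and taken as log2(1 + value) for Moran's I and correlations. Levels of places are summed UMIs over summed totals. Groups came from average linkage on 1 - r, with at least 3 genes. List members needed 20 UMIs. Named genes were the 50, the 5 just outside, the genes most like each group, the extreme members of each list, Top2b, Nppa, Myh6, Myh7, Myh8 and Ucp3. Genes of the hemoglobin patch, the genes that came in without it and some list members were named after their values were seen. The members and lists were chosen with earlier results of these data known.

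A spot's total limits the precision, and intervals cover counting error only. The ranking, the groups and the ratios were tested on simulated data. Scripts ran under Python 3.11.15 with pandas 2.3.3, numpy 2.4.6 and scipy 1.17.1.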

Additional observations from a re-analysis of the deposited data

How the results depend on the processing

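No paired analysis was possible because the section is a single sample. Of 150 alternative values, 112 moved by less than the spread over 4 parts of the section, or for counts by less than 1.5 times, or for shares of spots stayed inside their 95% binomial interval. For some results the spread was larger than the value, so staying within it says little there. It was 0.475 for the edge ratio of the Gpx3 group, 0.017, and 0.253 for that of the Ckmt2 group, -0.074. For the median r between the groups, 0.132, it was 0.63. Alternatives that leave out hemoglobin-rich spots or change the totals were chosen after seeing the data. The cause of the other shifts was not tested.

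Of the 50 genes, 32 remained among the 50 highest with Moran's I on raw UMIs, 33 with it on UMIs per 10000 without log2, and 31 with hemoglobin left out of the totals. The median r within the Ckmt2 group, 0.778, was 0.534 after thinning each spot to 8715 UMIs (92 shallower spots left out), 0.578, 0.578 and 0.576 without spots of at least 5%, 2% and 20% hemoglobin, 0.633 with hemoglobin out of the totals, 0.603 without hemoglobin-rich spots and with the 50 genes out of the totals too, and 0.641 without the upper right quadrant, where much of the hemoglobin patch lies. Within the Gpx3 group, 0.722 became 0.591 without log2, 0.611 after thinning and 0.610 with hemoglobin out of the totals.

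The median r between the groups, 0.132, turned negative in 11 settings. It was -0.445 by Spearman, -0.347 without log2, -0.0604 given log2 UMIs per spot, -0.0314 without edge spots, -0.508 after thinning, -0.607, -0.615 and -0.604 without spots of at least 5%, 2% and 20% hemoglobin, -0.0865 with hemoglobin out of the totals, -0.608 without hemoglobin-rich spots and with the 50 genes out of the totals too, and -0.365 without the upper right quadrant.

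Over all spots, the number of patches of highest spots for the Ckmt2 group, 4, was 15 at 5% of spots and 7 with hemoglobin out of the totals. The share of these spots in its largest patch, 87.0%, was 21.7% at 5% of spots, 98.4% at 20%, 64.0%, 63.8% and 64.4% without spots of at least 5%, 2% and 20% hemoglobin, and 60.5% without hemoglobin-rich spots and with the 50 genes out of the totals too. For the Gpx3 group 45.7% became 30.4% at 5% of spots, 95.1% at 20%, 21.7% after thinning, and 26.7%, 23.8% and 26.4% at the hemoglobin limits of 5%, 2% and 20%. The side of each group (left or right, upper or lower) was the same in all alternatives run. Inside the section, left or right also held in each of 4 bands of rows, but upper or lower did not hold in each of 4 bands of columns. There the median log2 ratio of upper over lower ran from -0.34 to 0.10 for the Ckmt2 group. For the Gpx3 group it ran from -0.07 to 0.42.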

Other observations

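Genes that came into the 50 highest once the hemoglobin-rich spots were left out carried layouts of their own in the 858 remaining spots. Thbs4, thrombospondin 4, a matrix protein of stressed heart muscle, was higher on the right (1.22 against 0.574 UMIs per 10000). It was also higher on the upper side (1.19 against 0.593) and highest at the top (2.48). In the right sector it stood at 0.741, below its level of 0.885 over these spots. Thbs4 stood with Nppa in being higher toward the inside of the wall, with a log2 ratio of inner over outer of 1.31. Cd74, the invariant chain of antigen presentation, was also higher on the right (6.22 against 3.81) but had a log2 ratio of inner over outer of -1.50. Serpina3n, a secreted protease inhibitor, was at 2.20 on the right and 0.826 on the left, and at 1.89 on the upper and 1.10 on the lower side. Among 23 genes grouped with Clu in this new list the median r was 0.530, and among 24 grouped with Myl2 it was 0.679, while Myh7, Acta1 and Myl1 joined no group.

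Igkc, the immunoglobulin kappa constant chain, had the highest deposited I of the lymphocyte list, 0.226. Its recomputed I without the hemoglobin-rich spots was 0.2998. The deposited and the recomputed I are different measures, so their difference does not give the effect of leaving out those spots. In the hemoglobin-poor spots that list's sum was 0.478 UMIs per 10000, with 0.708 at edges and 0.392 in the interior. In the hemoglobin patch the sum was 2.45, from 65 UMIs. Neutrophil genes in sum stood at 0.981 in the patch against 0.116 in the hemoglobin-poor spots. Rsad2 had a deposited I of 0.376, the highest of the interferon list, and a recomputed I of 0.00293 without the hemoglobin-rich spots. Rsad2 stood at 4.30 UMIs per 10000 in the patch, where the whole interferon list summed to 6.19.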
